A study of Mus musculus with 12 samples.

Results

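Bile acids are made from cholesterol in hepatocytes, and the 8 genes described here encode enzymes at the main steps of that synthesis, the enzymes that conjugate the products, and the nuclear receptors that hold the synthesis in check. They are Cyp7a1, Cyp8b1, Cyp7b1 and Cyp27a1 (cytochrome P450 enzymes of synthesis), Slc27a5 and Baat (conjugation), and Nr1h4 and Nr0b2 (the receptors FXR and SHP). They were chosen by symbol from a table of 13554 genes, and all 8 are in the table and passed the filter on low values. RNA was measured on postoperative day 3 in livers from male wild-type C57Bl/6J animals after partial hepatectomy, with 3 libraries in each of 4 groups. In PH80_G+H 80% of the liver was removed and G-CSF, which drives the making of neutrophils, was combined with HNF4a, a nuclear receptor that maintains hepatocyte gene expression. In PH80_HC the resection was also 80%, in an arm the labels call HC, in PH80 it was 80% with no agent named, and in PH70 it was 70%. All animals, those of PH70 included, had lost most of the liver, and no group without surgery was analysed here. The sources used here give neither the age of the mice, nor what HC stands for, nor how and when G-CSF and HNF4a were given. Nothing in the labels ties each library to an animal of its own, so a p-value here measures spread among libraries that may be partly technical.

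In the classic pathway CYP7A1 takes the first and rate-limiting step, and CYP8B1 then adds the 12-alpha hydroxyl group that makes cholic acid. In the alternative pathway CYP27A1 oxidises the side chain of cholesterol and CYP7B1 hydroxylates the resulting oxysterol. Bile acids activate FXR, which induces Nr0b2, and its product SHP, a corepressor, acts on LRH-1 and HNF4a at the Cyp7a1 and Cyp8b1 promoters. FGF15 from the ileum gives a second signal against synthesis through the receptor FGFR4 and its partner beta-Klotho on hepatocytes. Slc27a5 encodes the ligase that joins bile acids to coenzyme A, and Baat the transferase that then joins them to taurine or glycine.

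The genes lie apart from each other in the mouse genome. On GRCm38 (GENCODE M21) Cyp7a1 is at chr4:6265612-6275633, Cyp8b1 at chr9:121914356-121916305, Cyp27a1 at chr1:74713574-74737892 and Cyp7b1 at chr3:18071950-18243338. Slc27a5 is at chr7:12988346-12998192, Baat at chr4:49489422-49506557, Nr1h4 at chr10:89454234-89533585 and Nr0b2 at chr4:133553376-133556536. None of the 8 has an annotated exon that overlaps an exon of another gene. The longest coding transcripts run from 1132 bases (Nr0b2) to 4172 bases (Cyp7a1).

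RefSeq's promoter table (GRCm38.p6) holds 4 of the 8 genes: Cyp8b1, Nr0b2, Nr1h4 and Cyp27a1. The 250 bases before the start of Cyp8b1 (chr9:121916306-121916555, minus strand) and of Nr0b2 (chr4:133553126-133553375, plus strand) are shown because Cyp8b1 had the largest change of the 8 genes between PH80 and PH70 and Nr0b2 the smallest. Capitals mark CAAAGTCCA, the motif particular to HNF4, in Cyp8b1 and TCAAGG, a part of the LRH-1 site, in Nr0b2.
Cyp8b1: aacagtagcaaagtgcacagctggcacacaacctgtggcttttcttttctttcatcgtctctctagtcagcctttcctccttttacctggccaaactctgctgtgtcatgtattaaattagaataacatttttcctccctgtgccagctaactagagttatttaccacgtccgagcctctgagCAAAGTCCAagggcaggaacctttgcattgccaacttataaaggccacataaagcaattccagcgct
Nr0b2: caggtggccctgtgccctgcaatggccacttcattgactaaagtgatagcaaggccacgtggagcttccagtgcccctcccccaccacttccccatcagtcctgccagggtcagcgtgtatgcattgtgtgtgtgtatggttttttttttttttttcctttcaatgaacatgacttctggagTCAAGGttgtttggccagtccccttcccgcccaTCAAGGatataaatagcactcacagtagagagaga

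The HNF4 motif begins 67 bases before the start of Cyp8b1, and it is present on either strand in 0.383% of 32851 promoter windows of this length. TCAAGG begins 68 and 35 bases before the start of Nr0b2, and in neither place does it extend to the AAGGTCA described below. It is present in 12.5% of all windows and at 2 or more places in 0.922%. These motifs were searched after the sequences had been seen. AGGTCA, the core site of many nuclear receptors, was found in the Nr1h4 window, on the strand opposite to the gene, beginning 214 bases before the start in RefSeq's table, and is present in 14.0% of all windows. That window (chr10:89506659-89506908) lies inside the span of Nr1h4 given above, so its start is an internal one and not the outermost start of the gene. Its extended form AAGGTCA, which contains the core site and is bound by LRH-1, is in 4.08% of all windows, and the D-box TTANGTAA, bound by DBP and TEF, in 2.06%. Neither of these motifs, nor the direct repeat AGGTCANAGGTCA or the inverted repeat AGGTCANTGACCT, is in any of the 4 windows. Both strands were searched throughout, and a match or its absence says only which letters the window holds.

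The libraries held between 9.72 M and 44.5 M recovered reads, and the lowest count of any of the 8 genes in a library was 50 reads (Cyp8b1 in PH80 replicate 2), so counting error is small beside the spread between libraries. Values below are normalised reads, meaning reads divided by 1 size factor per library, with SD over 3 libraries. Tests were made with limma on log2(value + 1) across 12570 genes, two-sided, with Benjamini-Hochberg adjustment and a threshold of 0.05, and folds are on that scale. All 13 hepatocyte markers were detected, with albumin between 1484320 and 3194590 normalised reads in each library. Markers of gut tissue were incomplete: Fgf15, Fabp6 and Lct are not analysed here.

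Per kilobase of transcript, the conjugation and side-chain enzymes were the most abundant of the 8 genes in every group and Cyp7a1 the least. In PH80 the mean levels per kb were 3836 for Slc27a5, 2542 for Cyp27a1, 1725 for Baat, 1156 for Nr0b2, 683 for Cyp7b1, 627 for Nr1h4, 200.4 for Cyp8b1 and 177 for Cyp7a1. In PH70 they were 7459 for Slc27a5, 4322 for Cyp27a1, 2557 for Baat, 2441 for Cyp8b1, 1879 for Cyp7b1, 1324 for Nr1h4, 1157 for Nr0b2 and 434 for Cyp7a1. Cyp8b1 thus stood at rank 7 in PH80 and at rank 4 in PH70. From Baat downwards the libraries of neighbours in this order overlapped in PH80, and in PH70 they did so from Baat to Nr0b2.

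**Figure D1:**
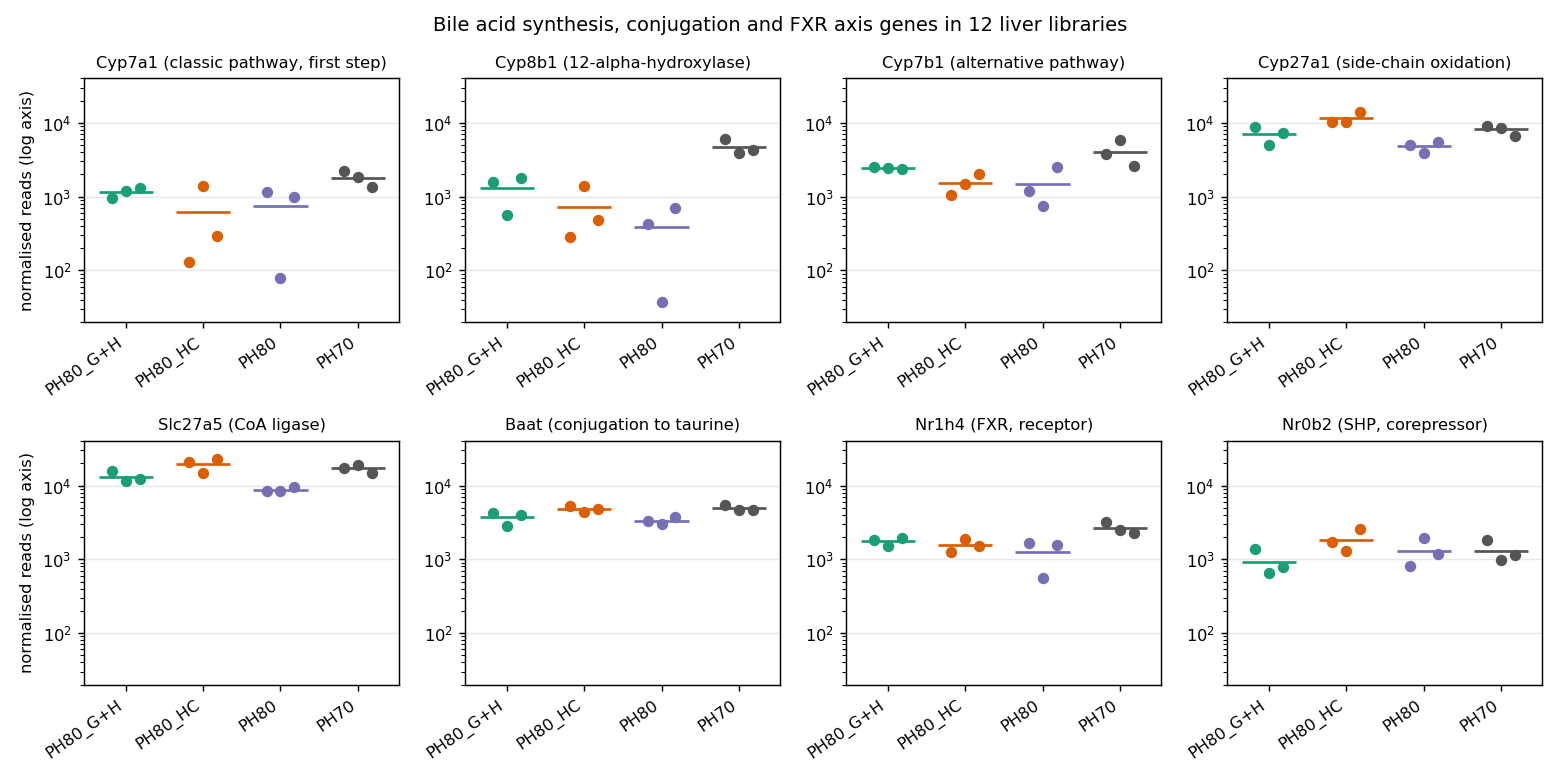
Normalised reads (log axis) of the 8 genes in each library, with 3 points and a line at the mean for each group. PH80 replicate 2 (middle point) is the lowest library for Cyp7a1 (79.3), Cyp8b1 (37.4), Nr1h4 (560) and Cyp7b1 (755), while Nr0b2 stood at 1942 in it.

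The larger resection was set against the smaller one to ask what a further loss of liver did to the remnant. Cyp8b1, Cyp7b1 and Slc27a5 fell in PH80, while Nr0b2 was almost level. Every PH80 library lay below every PH70 library for 7 of the 8 genes, the exception being Nr0b2. Such a separation was seen in 14.2% of all genes tested. Of the 8 genes 3 were called lower and 0 higher, against 2.73% of all genes lower and 1.09% higher. EdgeR called 2 of the 8 (2.93% of all genes) and DESeq2 called 6 (7.56% of all genes). An unadjusted p under 0.05 was found for 7 of the 8 and for 21.4% of all genes. The median log2 difference of the 8 genes was -1.09, against 0.01 for all genes tested. In these bulk samples fewer cells of a type and less RNA per cell cannot be told apart.

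Cyp8b1, whose product decides how much cholic acid is made, had 423, 37.4 and 711 normalised reads in PH80, against 5987, 3947 and 4344 in PH70. The highest PH80 library was thus far under the lowest PH70 library. The fall was 20.7-fold (log2 change -4.37, SE 0.86, adjusted p = 0.0159). The count models on recovered reads gave log2 changes of -3.60 (edgeR) and -3.61 (DESeq2). Replicate 2 decided much of its size: without it the log2 change was -3.09 (adjusted p = 0.0244). The call was lost without PH70 replicate 1 (adjusted p = 0.0533) or PH70 replicate 2 (adjusted p = 0.0708), which left the change at -4.19 and -4.49.

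Cyp7a1, the rate-limiting enzyme, had 1143, 79.3 and 988 normalised reads in PH80, against 2213, 1859 and 1356 in PH70. The groups did not overlap, but PH80 replicate 2 lay an order of magnitude under the rest of its group. The log2 difference was -1.98 with a 95% confidence interval from -3.89 to -0.07 and an adjusted p = 0.217 in limma. Without PH80 replicate 2 it was -0.74 (adjusted p = 0.58), and leaving out other single libraries gave -2.65 to -1.82. EdgeR gave -1.30 and DESeq2 -1.29.

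Of the alternative pathway, Cyp7b1 had 1183, 755 and 2499 normalised reads in PH80, against 3758, 5833 and 2620 in PH70. The highest PH80 value came close to the lowest PH70 value. It fell 2.95-fold (log2 change -1.56, SE 0.38, adjusted p = 0.0395). That call was lost without PH80_G+H replicate 1 or 3, PH80_HC replicate 2, PH80 replicate 1 or 2, or PH70 replicate 1 or 2, which gave adjusted p-values from 0.052 to 0.186, and also with edgeR (adjusted p = 0.0607), with equal library totals (0.06) and without the intensity trend in limma (0.0708). Cyp27a1 averaged 4809 ± 809 normalised reads in PH80 and 8176 ± 1288 in PH70 (adjusted p = 0.097, log2 difference -0.77, SE 0.24).

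For the conjugating enzymes the libraries within each group were closer together. Slc27a5 had 8303, 8401 and 9628 normalised reads in PH80, against 17330, 18848 and 15021 in PH70. Here the PH80 libraries stood within a narrow band below all of PH70. It fell 1.94-fold (log2 change -0.96, SE 0.23, adjusted p = 0.0372), and the call was lost without PH80_G+H replicate 3 or any single library of PH80 or PH70 (adjusted p from 0.0522 to 0.164), while the log2 change stayed between -1.05 and -0.88. Baat averaged 3347 ± 352 in PH80 and 4963 ± 458 in PH70 (adjusted p = 0.117, log2 difference -0.57, SE 0.19).

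The receptors differed from each other. Nr1h4, the gene of FXR, had 1683, 560 and 1543 normalised reads in PH80, against 3212, 2482 and 2299 in PH70, with PH80 replicate 2 again the lowest. Its log2 difference was -1.22 (SE 0.33, adjusted p = 0.0601, and 0.0229 with DESeq2 on recovered reads). Nr0b2, the FXR target that encodes SHP, had 814, 1942 and 1169 in PH80, against 1811, 989 and 1131 in PH70. Those groups overlapped fully, and the log2 difference was -0.04 with a 95% confidence interval from -0.82 to 0.73 (adjusted p = 0.961). PH80 replicate 2, lowest of its group for Cyp7a1, Cyp8b1 and Nr1h4, was its highest for Nr0b2.

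The 3 calls in this comparison became 1 without PH80_G+H replicate 3, PH80 replicate 1 or PH80 replicate 2, while 2.43%, 0.994% and 1.25% of all genes were called. They became 0 without PH70 replicate 1 or PH70 replicate 2, while 1.38% and 0.485% of all genes were called, so calls were lost over all genes too. With the trend on transcript length and GC content removed they became 6, by the addition of Cyp27a1, Baat and Nr1h4, and calls over all genes were then 5.55%.

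**Figure D2:**
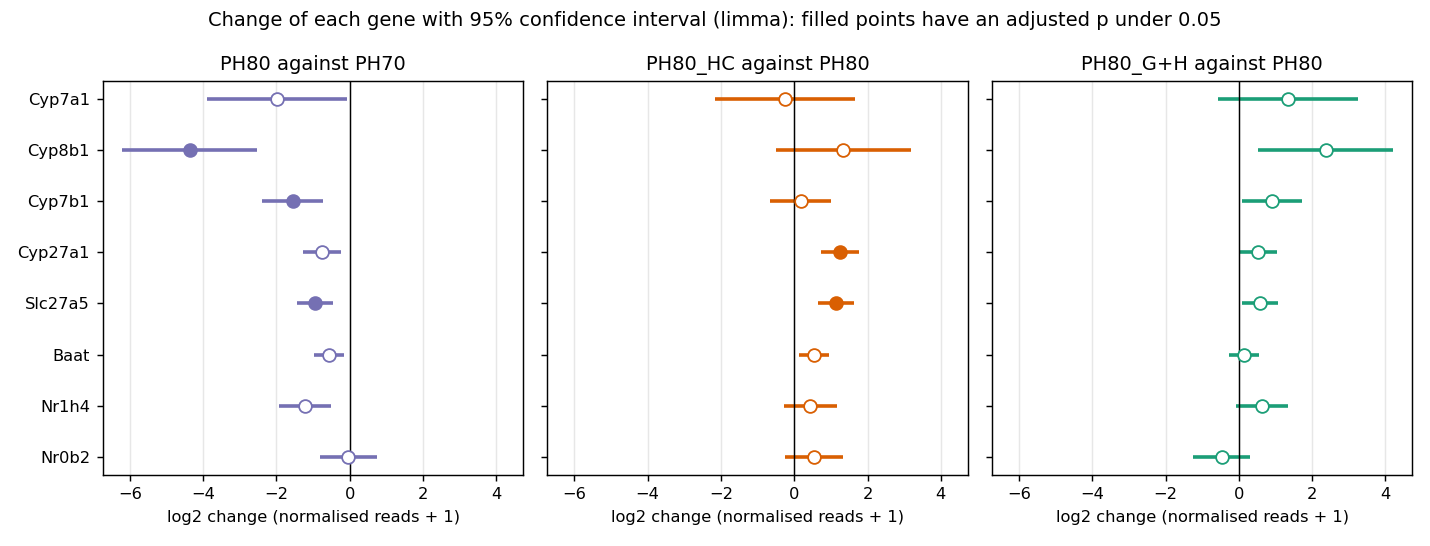
The log2 change of each gene (limma, log2 of normalised reads + 1) with its 95% confidence interval in 3 comparisons. Cyp8b1 has the largest change, -4.37 in PH80 against PH70, and in PH80_HC against PH80 the 2 filled points are Cyp27a1 (1.26) and Slc27a5 (1.14).

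PH80_HC was set against PH80 to ask what that arm changed after the larger resection. Cyp27a1 and Slc27a5 rose, and the first enzymes of the classic pathway did not pass the test. Of the 8 genes 2 were called higher and 0 lower, against 0.652% of all genes higher and 0.239% lower. EdgeR called 2 (0.923% of all genes) and DESeq2 2 (4% of all genes), and 3 had an unadjusted p under 0.05, as 14.3% of all genes did. Every PH80_HC library lay above every PH80 library for Cyp27a1, Slc27a5 and Baat, as in 8.26% of all genes.

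Cyp27a1 had 10302, 10353 and 13834 normalised reads in PH80_HC, against 4983, 3927 and 5517 in PH80. The lowest library of PH80_HC was above the highest of PH80, and above the highest of PH70 (9168). The rise was 2.39-fold (log2 change 1.26, SE 0.24, adjusted p = 0.0306). Slc27a5 had 21174, 14623 and 23033 in PH80_HC, against 8303, 8401 and 9628 in PH80, a rise of 2.20-fold (log2 change 1.14, SE 0.23, adjusted p = 0.0357). Baat averaged 4847 ± 461 in PH80_HC and 3347 ± 352 in PH80 (log2 difference 0.53, adjusted p = 0.213).

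Both calls were lost when every library was set to the same total (log2 changes 0.93 and 0.81, adjusted p = 0.0761 and 0.0691), a scaling that moved the median of all genes by -0.33 in this comparison and called 0.573% of all genes. They were lost too in a fit of the groups compared alone (adjusted p = 0.11 for Cyp27a1 and 0.16 for Slc27a5), which called 0.0159% of all genes, and without PH80_HC replicate 1 or 3, PH80 replicate 1 or 2, PH80_G+H replicate 3 or PH70 replicate 2. That of Cyp27a1 was lost without PH80_HC replicate 2 as well, and that of Slc27a5 without PH80 replicate 3 or PH70 replicate 1. Markers of some cell types also had higher means in PH80_HC than in PH80. This held for 11 of 13 hepatocyte markers (median log2 difference 0.44, beside 0.54 for the 8 genes), 12 of 12 macrophage markers (0.51) and 10 of 11 lymphocyte markers (0.82). None of these markers passed in limma, where 1, 4 and 3 of them in that order had an unadjusted p under 0.05. EdgeR called 0 of each and DESeq2 1, 0 and 0. Other lists went the other way. Means were lower in PH80_HC for 8 of 10 stellate and matrix markers (median log2 difference -0.51, 5 with an unadjusted p under 0.05). They were also lower for 7 of 10 sinusoidal endothelial markers (-0.18) and 6 of 11 periportal markers (-0.04). Neutrophil markers were split, with 6 higher and 5 lower. Their part in the result was not tested.

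Cyp7a1 had 129, 1410 and 288 normalised reads in PH80_HC, against 1143, 79.3 and 988 in PH80. Each group held both high and low libraries, and the log2 difference was -0.26 with a 95% confidence interval from -2.17 to 1.65 (adjusted p = 0.94). Its sign changed without PH80_HC replicate 1 (0.51), PH80 replicate 1 (0.41) or PH80 replicate 3 (0.31). Cyp8b1 had 280, 1402 and 476 in PH80_HC, against 423, 37.4 and 711 in PH80 (log2 difference 1.34, adjusted p = 0.529). Without PH80 replicate 2 this difference was 0.060 (adjusted p = 0.981). PH80_HC replicate 2 was the highest of its group for Cyp7a1, Cyp8b1 and Nr1h4, and the lowest for Nr0b2, Slc27a5 and Baat. Cyp7b1 averaged 1519 ± 466 in PH80_HC and 1479 ± 909 in PH80 (adjusted p = 0.903), Nr1h4 averaged 1552 ± 303 in PH80_HC and 1262 ± 612 in PH80 (adjusted p = 0.615), and Nr0b2 averaged 1855 ± 654 in PH80_HC and 1308 ± 576 in PH80 (adjusted p = 0.555).

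G-CSF with HNF4a was compared with PH80 in the same way. None of the 8 genes passed in limma, where 3 (Cyp8b1, Cyp7b1 and Slc27a5) had an unadjusted p under 0.05, and 0 passed with edgeR or with DESeq2. Over all genes limma called 0.119%, edgeR 0.0875% and DESeq2 1.61%, and 10.5% had an unadjusted p under 0.05. The difference with the largest size was that of Cyp8b1, which had 1599, 557 and 1776 normalised reads in PH80_G+H, against 423, 37.4 and 711 in PH80. PH80_G+H replicate 2 lay within the range of PH80. The log2 difference was 2.36 with a 95% confidence interval from 0.51 to 4.21 (adjusted p = 0.331). Without PH80 replicate 2 it was 1.08 (adjusted p = 0.7), and edgeR gave 1.75 and DESeq2 1.74.

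Cyp7a1 had 960, 1177 and 1305 normalised reads in PH80_G+H, against 1143, 79.3 and 988 in PH80 (log2 difference 1.34, adjusted p = 0.63). The 3 libraries of PH80_G+H were close to each other and to the 2 high libraries of PH80. Without PH80 replicate 2 the log2 difference was 0.099 (adjusted p = 0.973), and edgeR and DESeq2 gave 0.64. Cyp7b1 had 2511, 2409 and 2376 in PH80_G+H, against 1183, 755 and 2499 in PH80 (log2 difference 0.90, adjusted p = 0.427). Its SD of 70.3 in PH80_G+H compares with 909 in PH80. Slc27a5 averaged 13168 ± 2393 in PH80_G+H and 8777 ± 738 in PH80 (log2 difference 0.57, adjusted p = 0.393), and it was the 1 gene of the 8 for which every PH80_G+H library lay above every PH80 library, as in 8.82% of all genes. Log2 differences were 0.51 for Cyp27a1, 0.13 for Baat, 0.64 for Nr1h4 and -0.47 for Nr0b2.

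Set against PH70, the PH80_HC and PH80_G+H arms showed values below PH70 for the classic pathway and, in PH80_HC, values near or above it for conjugation. No member passed in either comparison in limma, where 4 of the 8 in PH80_HC and 2 in PH80_G+H had an unadjusted p under 0.05. In PH80_HC against PH70 limma called 0.231% of all genes and 15.8% had an unadjusted p under 0.05. In PH80_G+H against PH70 these shares were 0.00796% and 5.97%. With DESeq2 on recovered reads Cyp7b1 was called lower in PH80_HC (adjusted p = 0.0224), against 2.01% of all genes called, and none of the 8 in PH80_G+H, against 0.525% of all genes. EdgeR called none of the 8 in either, and 0.119% and 0.00796% of all genes. Every library of both arms lay below every PH70 library for Cyp8b1, Cyp7b1 and Nr1h4, and those of PH80_G+H did so for Cyp7a1 and Baat too. Such separations were seen in 9.07% of all genes for PH80_HC and 7.57% for PH80_G+H. Cyp27a1 was higher in every PH80_HC library than in every PH70 library, as in 7.96% of all genes. The log2 differences of Cyp8b1 were -3.03 in PH80_HC against PH70 (adjusted p = 0.18) and -2.01 in PH80_G+H against PH70 (adjusted p = 0.773). In PH80_HC against PH70 Cyp8b1 was called in 2 of 26 alternatives. These were limma with only the groups compared (adjusted p = 0.0249, 0.231% of all genes called) and without PH80 replicate 2 (0.0298, 0.438%). For Slc27a5 the differences were 0.18 in PH80_HC and -0.38 in PH80_G+H, and for Cyp27a1 0.49 in PH80_HC and -0.25 in PH80_G+H. These comparisons share the PH70 libraries.

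Between the arms, PH80_G+H against PH80_HC, no member passed in limma, edgeR or DESeq2, which called 0.255%, 0.374% and 2.43% of all genes. In limma 3 of the 8 and 13.6% of all genes had an unadjusted p under 0.05. Nr0b2 had 1360, 657 and 784 normalised reads in PH80_G+H, against 1725, 1276 and 2565 in PH80_HC (adjusted p = 0.267). Cyp27a1 averaged 6976 ± 1868 in PH80_G+H and 11496 ± 2024 in PH80_HC (log2 difference -0.74, adjusted p = 0.218). Every PH80_G+H library lay below every PH80_HC library for Cyp27a1 and Baat, as in 8.71% of all genes, and above for Cyp7b1, as in 8.4%. The moderated F test over the 4 groups called none of the 8 genes, against 1.85% of all genes. Its smallest adjusted p-values were 0.0573 for Slc27a5, 0.0582 for Cyp27a1 and 0.0609 for Cyp8b1. Another 3, Cyp7b1, Nr1h4 and Baat, also had an unadjusted p under 0.05, which makes 6 of the 8, beside 19.1% of all genes. The likelihood ratio test of DESeq2 called 4 of the 8 and 9.75% of all genes, and edgeR called 0 and 1.71%.

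Ratios between members within a library do not depend on the scaling between libraries. The log2 ratio of Cyp8b1 to Cyp7a1 was -1.43, -1.06 and -0.47 in PH80, against 1.44, 1.09 and 1.68 in PH70. Reads of Cyp8b1 were thus fewer than those of Cyp7a1 in each PH80 library and more in each PH70 library. The same ratio was 1.12, -0.01 and 0.72 in PH80_HC, above all of PH80, and 0.73, -1.08 and 0.44 in PH80_G+H, where replicate 2 fell within the range of PH80. These ratios are of reads, not of transcripts per length, and were not tested.

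The log2 ratio of Cyp8b1 to Nr0b2 was -0.94, -5.66 and -0.72 in PH80, against a mean of 1.89 ± 0.14 (SD, n = 3) and a lowest value of 1.72 in PH70. It was -2.62, 0.14 and -2.43 in PH80_HC and 0.23, -0.24 and 1.18 in PH80_G+H, so that PH70 lay above every library of the other groups. For Baat to Slc27a5, the sequential steps of conjugation, it was -1.34, -1.47 and -1.37 in PH80, against a mean of -1.78 ± 0.19 (SD, n = 3) and a highest value of -1.66 in PH70. It averaged -1.99 ± 0.25 in PH80_HC and -1.84 ± 0.21 in PH80_G+H, with highest values of -1.74 and -1.60. Every PH80 library thus lay above every library of the other groups. The other ratios computed overlapped between PH80 and PH70. Cyp7b1 to Cyp7a1 ran from 0.05 to 3.24 in PH80 and from 0.76 to 1.65 in PH70. Cyp27a1 to Cyp7a1 ran from 2.12 to 5.61 in PH80 and from 2.05 to 2.31 in PH70. Cyp7a1 to Nr0b2 ran from -4.60 to 0.49 in PH80 and from 0.26 to 0.91 in PH70. How often other gene pairs separate the groups was not computed.

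**Figure D3:**
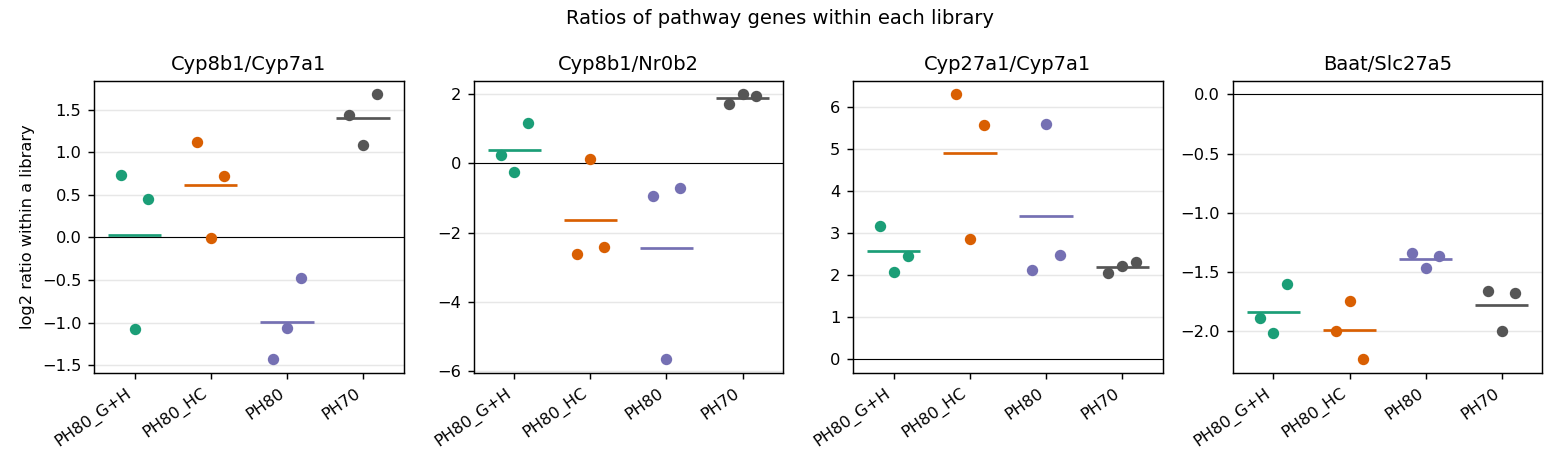
The log2 ratio of normalised reads of gene pairs within each library, with a line at the group mean. For Cyp8b1/Cyp7a1 the PH80 libraries lie between -1.43 and -0.47 and the PH70 libraries between 1.09 and 1.68. For Cyp27a1/Cyp7a1 the highest values are 6.31 and 5.58 in PH80_HC replicates 1 and 3 and 5.61 in PH80 replicate 2.

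Across the 12 libraries the members differed in how they varied together. Pearson r of log2 values over 12 libraries was 0.97 between Cyp8b1 and Nr1h4, 0.87 between Cyp7a1 and Nr1h4 and 0.86 between Cyp7a1 and Cyp8b1. With each group set to its own mean these were 0.94, 0.90 and 0.90. Cyp27a1 and Slc27a5 had an r of 0.92 and Slc27a5 and Baat 0.86 (0.70 and 0.63 within groups). Cyp7a1 and Slc27a5 had 0.01, and Cyp7a1 and Nr0b2 -0.59. PH80 replicate 2 and PH80_HC replicate 1 weigh heavily in the values that involve Cyp7a1. PH80 replicate 2 also weighs heavily in the value for Cyp8b1 with Nr1h4. Its log2 deviations from the mean of 12 libraries were -4.58 for Cyp8b1 and -1.59 for Nr1h4, each the lowest of all libraries. All points share the scaling of their library.

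The genes most like each member were found by the same r over 12 libraries, among 10572 genes. These had a mean value of at least 50, with the 8 genes included and predicted genes (Gm or Rik symbols) left out. The highest r among so many genes is large partly by selection, and no r was tested. For Cyp7a1 the most alike were Osbpl8 (0.95), Sc5d (0.93), an enzyme of cholesterol synthesis, and Slc47a1 (0.91). For Cyp8b1 they were Nr1h4 (0.97), Clec2h (0.96) and Lama3 (0.96), and for Nr1h4 Acss2 (0.97), Cyp8b1 (0.97) and Car3 (0.96). Slc27a5 was most like Acad8 (0.98), Proc (0.98), the gene of protein C, and Mrnip (0.97), and Cyp27a1 most like Abhd14b (0.95), Ndrg2 (0.94) and Selenoo (0.94). Cyp7b1 had Cyp2j5 (0.93), D3Ertd751e (0.93) and Hsd3b5 (0.92), Baat had Inca1 (0.95), Hsd11b1 (0.91) and Retreg3 (0.91), and Nr0b2 had Phf7 (0.91), Pcbp4 (0.88) and Ift46 (0.88).

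In PH80 against PH70 no further gene of the synthesis, regulator, FXR target and transporter lists had a difference as large as that of Cyp8b1. Beside the counts of these lists stand 2.73% of all genes called lower and 1.09% called higher in that comparison. Of 16 further genes listed with the synthesis enzymes 1, Acot12, fell in PH80 against PH70 (1055 ± 283 in PH80 and 1865 ± 347 in PH70, log2 change -0.84, adjusted p = 0.0475, and 0.0611 with edgeR). It encodes an acyl-CoA thioesterase, and a step in bile acid synthesis is not established for it here. Apart from Acot12 none of the list passed in limma in this comparison. EdgeR called 0 of the 16 (2.93% of all genes) and DESeq2 4 (7.56% of all genes). An unadjusted p under 0.05 in limma was found for 7 of the 16 and for 21.4% of all genes. The median log2 difference of the list was -0.47. The next were Slc27a2, which activates bile acid precursors (-1.01, adjusted p = 0.0564), Scp2, the thiolase of side-chain shortening (-0.93, adjusted p = 0.0651), and Ch25h, the cholesterol 25-hydroxylase, at low values (17.6 in PH80 and 3.58 in PH70 on average, log2 difference 2.59, adjusted p = 0.079). None of the 16 passed in PH80_HC or PH80_G+H against PH80 in limma (3 and 5 with an unadjusted p under 0.05, 0 and 0 by edgeR, 1 and 0 by DESeq2). Of all genes 14.3% and 10.5% had an unadjusted p under 0.05 in these comparisons. EdgeR called 0.923% and 0.0875% of all genes and DESeq2 4% and 1.61%, and the same shares stand beside the lists below. The 16 genes had lower means in 1 and 2 cases. The median log2 differences of the 16 were 0.37 in both.

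Of 19 further regulators tested 1 fell in PH80 against PH70, Cebpa, a transcription factor of mature hepatocytes (log2 change -1.36, SE 0.23, adjusted p = 0.00814). Klb, which encodes the FGF15 coreceptor beta-Klotho, averaged 222 in PH80 and 418 in PH70 (log2 difference -0.97, adjusted p = 0.12), and Mafg, an FXR-induced repressor of bile acid synthesis genes, 689 in PH80 and 461 in PH70 (0.59, adjusted p = 0.134). None of the 19 passed in either arm against PH80 in limma (5 in PH80_HC and 2 in PH80_G+H with an unadjusted p under 0.05, 0 called in edgeR and 0 by DESeq2 in each). Nr1i3, the gene of the receptor CAR, averaged 3646 in PH80_HC and 1782 in PH80 (log2 difference 1.01, adjusted p = 0.171).

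Of 15 FXR target genes tested, Nr0b2 among them, 1 rose in PH80 against PH70. It was Slc51b, which encodes the beta chain of the basolateral exporter OST, with 474, 1192 and 548 normalised reads in PH80, against 117, 96.9 and 125 in PH70 (log2 change 2.58, SE 0.38, adjusted p = 0.00446). Its highest library was PH80 replicate 2, the lowest of its group for Cyp7a1. The canalicular exporter Abcb11, another FXR target, averaged 12766 ± 3023 in PH80 and 12055 ± 995 in PH70. None of the 15 passed in either arm against PH80 in limma (5 in PH80_HC and 2 in PH80_G+H with an unadjusted p under 0.05, 0 and 0 by edgeR, 3 and 0 by DESeq2). Slc51b averaged 388 in PH80_HC and 738 in PH80 (log2 difference -0.90, adjusted p = 0.295), and 311 in PH80_G+H (-1.18, adjusted p = 0.277). Among 12 bile acid transporters tested, Slc51b included, the uptake carriers Slc10a1 (log2 change -1.48, adjusted p = 0.0142) and Slco1a1 (-2.78, adjusted p = 0.0345, and 0.11 with edgeR) fell in PH80 against PH70. None of the 12 passed in either arm against PH80 in limma (7 in PH80_HC and 3 in PH80_G+H with an unadjusted p under 0.05, 0 and 0 by edgeR, 3 and 0 by DESeq2). For PH80_HC and PH80_G+H the shares of all genes with an unadjusted p under 0.05 were 14.3% and 10.5%. By DESeq2 they were 4% and 1.61%.

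**Figure D4:**
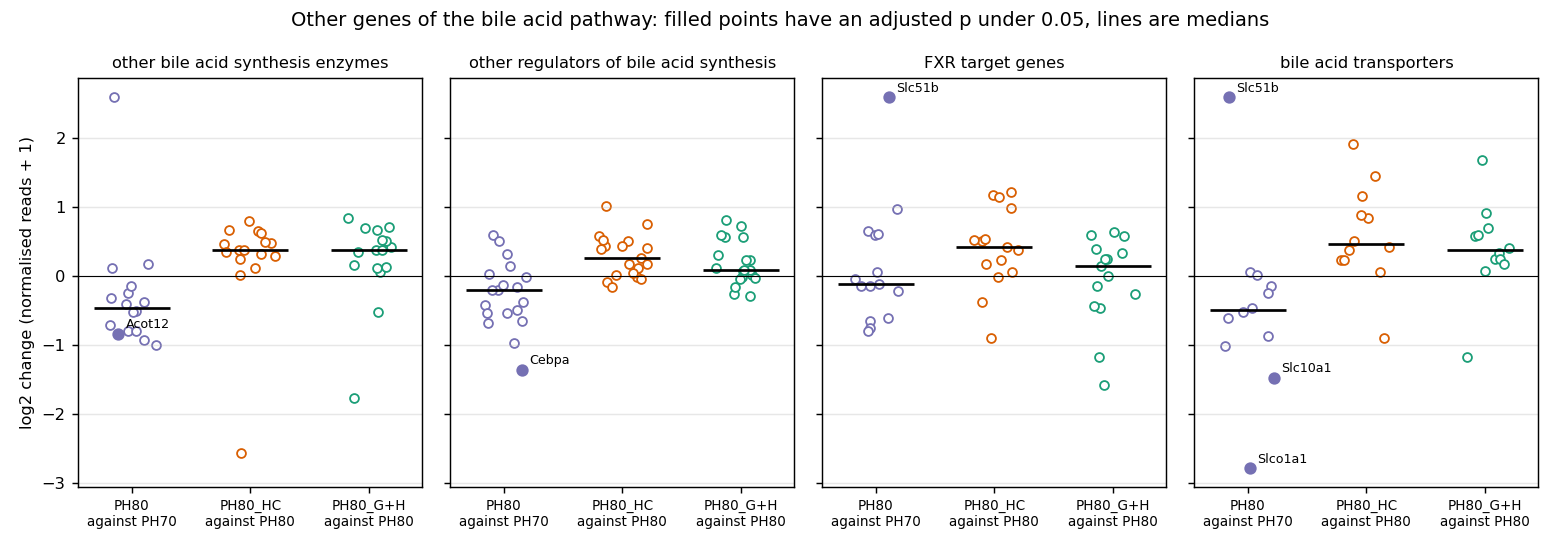
The log2 change of genes in the other pathway lists in 3 comparisons, 1 point a gene and a line at the list's median. In PH80 against PH70 the filled points are Acot12 (-0.84), Cebpa (-1.36), Slc51b (2.58, in 2 lists), Slc10a1 (-1.48) and Slco1a1 (-2.78), and the comparisons with PH80 hold none.

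Cyp7a1 and Cyp8b1 are known to vary over the day, and clock genes differed between the groups. In PH80 against PH70, 7 of 16 clock genes tested fell and 2 rose, against 2.73% of all genes lower and 1.09% higher. EdgeR called 9 of the 16 (2.93% of all genes) and DESeq2 10 (7.56% of all genes). Dbp, a clock-driven transcription factor, had 97.0, 50.1 and 129 normalised reads in PH80, against 2113, 1340 and 671 in PH70 (log2 change -3.84, adjusted p = 0.000695). Its mean was 676 in PH80_HC and 541 in PH80_G+H, above PH80 and below PH70. In PH80_HC 2 of the 16 rose and 1 fell against PH80, beside 0.652% of all genes higher and 0.239% lower. In PH80_G+H 2 rose, beside 0.119% of all genes called. Dbp rose in both, while neither Cyp7a1 nor Cyp8b1 passed the test in these comparisons. EdgeR called 3 of the 16 in PH80_HC (0.923% of all genes) and 1 in PH80_G+H (0.0875%). DESeq2 called 7 (4%) and 4 (1.61%). The sources used here do not give the hour at which livers were taken, and the part of the clock genes in the result was not tested. Of 12 pericentral hepatocyte markers, which mark the zone where Cyp7a1 is highest in mouse liver, 4 fell in PH80 against PH70 and 3 rose in PH80_HC against PH80. EdgeR called 3 and 2 of the 12 in that order, and DESeq2 4 and 6. The shares of all genes called are those just given. Summed pericentral markers ranged from 48768 to 91042 in PH80, against 114978 to 169394 in PH70, and from 142724 to 169943 in PH80_HC. In PH80_G+H they ranged from 97668 to 111403, above all of PH80 and below all of PH70. There 10 of the 12 means were above PH80, and 0 passed in limma. Of 11 periportal markers 1 fell in PH80 against PH70, beside 2.73% of all genes lower, and edgeR and DESeq2 called 1 each. The part of zonal markers in the result was not tested.

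Inflammatory signals are known to lower Cyp7a1, and libraries also differed in acute phase genes. The summed values of 12 acute phase genes were 382297, 1117250 and 345613 in PH80 replicates 1 to 3 and 937449, 295781 and 2338290 in PH80_HC replicates 1 to 3. Cyp7a1 was lowest in the library of PH80 with the highest sum and highest in the library of PH80_HC with the lowest sum, but the lowest Cyp7a1 of PH80_HC (replicate 1) was not in the library with the highest sum (replicate 3). In PH80_G+H replicates 1 to 3 the sums were 666708, 333805 and 556213, and in PH70 replicates 1 to 3 they were 241055, 453427 and 374973. The lowest Cyp7a1 of PH80_G+H (960, replicate 1) was in the library with the highest sum of its group. The highest Cyp7a1 of PH70 (2213, replicate 1) was in the library with the lowest sum of its group. The highest Cyp7a1 of PH80_G+H and the lowest of PH70, both in replicate 3, stood beside the middle sum of their group. All 13 neutrophil markers were in the table and 11 were tested, with sums of 21259, 90895 and 12367 in PH80 and from 2811 to 10630 in PH70. Most of these sums is Lcn2, which hepatocytes also make and which is in both lists. The neutrophil genes S100a8 and S100a9 had 2369 and 2741 normalised reads in PH80 replicate 2. Their part in the result was not tested. Of the 13 hepatocyte markers none passed in PH80 against PH70 in limma (0 with an unadjusted p under 0.05, 0 called in edgeR and 1 by DESeq2), with a median log2 difference of -0.14, beside -1.09 for the 8 bile acid genes. The means of 12 of the 13 were nevertheless lower in PH80. Summed hepatocyte markers ranged from 2830960 to 3204540 in PH80, against 3848040 to 4218600 in PH70, without overlap. Much of these sums is albumin alone, which ranged from 1484320 to 1857740 in PH80 and from 2316490 to 2582340 in PH70. The part of hepatocyte markers in the result was not tested.

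**Figure D5:**
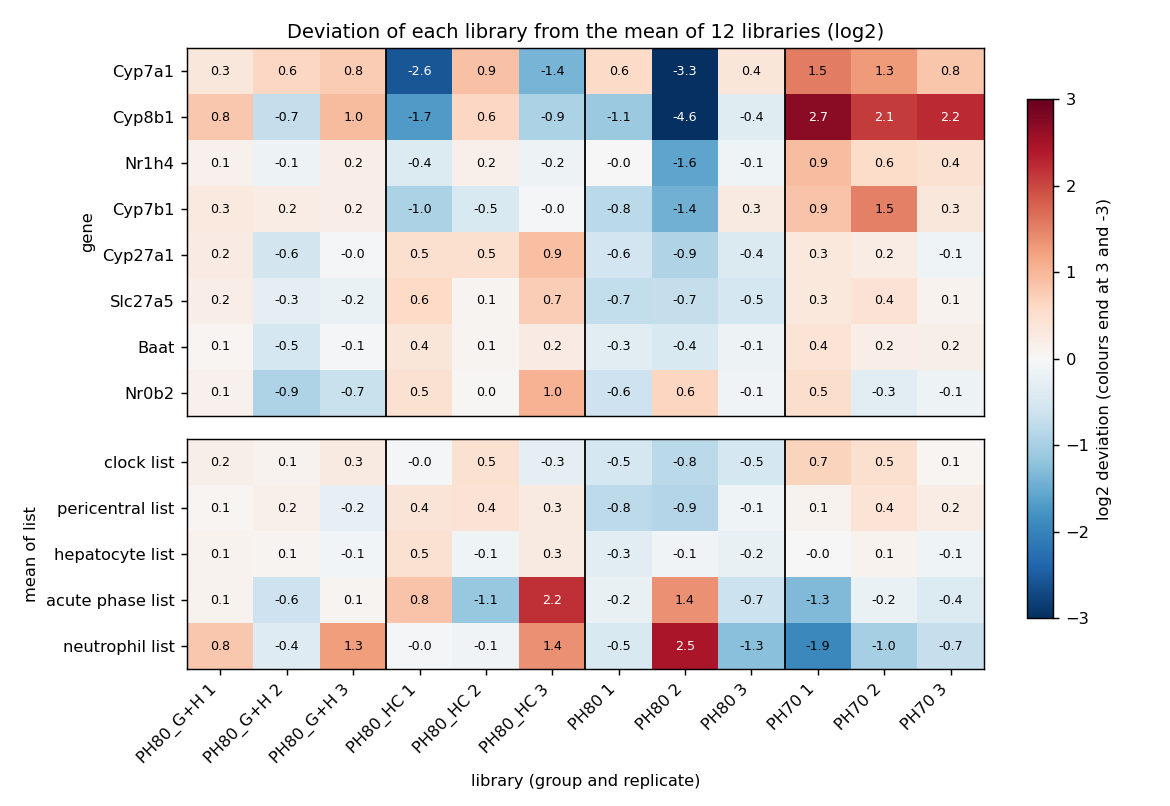
The log2 deviation of each library from the mean of 12 libraries for the 8 genes, and the mean deviation of 5 gene lists, by group and replicate. PH80 replicate 2 has the lowest values of Cyp8b1 and Cyp7a1 and a high mean of the acute phase (1.36) and neutrophil (2.46) lists, and in PH80_HC the acute phase list stands at 0.85, -1.13 and 2.18.

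None of the cholangiocyte (8 tested), sinusoidal endothelial (10), stellate and matrix (10), macrophage (12), neutrophil (11), lymphocyte (11) or erythroid (3) markers passed in PH80 against PH70 in limma or edgeR. Of them 3, 3, 1, 4, 4, 1 and 1 in that order had an unadjusted p under 0.05, beside 21.4% of all genes. DESeq2 called 1, 0, 0, 1, 4, 0 and 1, beside 7.56% of all genes. Means were higher in PH80 for 11 of 11 neutrophil and 11 of 12 macrophage markers, and lower for 8 of 10 sinusoidal endothelial markers. Summed cholangiocyte markers ranged from 2428 to 7001 in PH80, against 1676 to 12548 in PH70, and macrophage markers from 18599 to 41877 in PH80, against 15645 to 21583 in PH70. Transcript length also separated libraries: the slope of log2 deviation on log2 length ran from -0.28 in PH80_HC replicate 3 to 0.24 in PH80_G+H replicate 2.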

How the data were processed

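Per the labels' protocols, a stranded mRNA kit was used on 100 ng of RNA per library. The submitters' processing notes name the build GRCm38 (mm10) and DESeq2. The sources used here give no aligner, counter or annotation. The deposited signal is reads divided by 1 size factor per library: 100% of values were whole multiples of 1 read within 0.01. Genes that reached 10 in 3 or more libraries were tested (12570 genes). Limma 3.58.1 (R 4.3.3, intensity trend) was fitted to log2(value + 1) of all 12 libraries with group as the factor. Alternatives included edgeR 4.0.16 (quasi-likelihood) and DESeq2 1.42.0 on the recovered reads, other pseudocounts, filters and scalings, and leaving out each library. The fits were tested on simulated data with the same spread setting for every gene and no library set apart. That test therefore cannot tell how the fits handle spreads like those of Cyp7a1 and Cyp8b1. Transcript length is that of the longest coding transcript in GENCODE M21. Named genes are the 8 members, up to 4 genes with the smallest adjusted p of each pathway list (some left out for length), and for each member the 3 genes with the highest r. Abcb11, S100a8, S100a9 and albumin were named after their values were seen. The members and lists were chosen with earlier results of these data known. Protein sequences were not used here.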

Additional observations from a re-analysis of the deposited data

How the results depend on the processing

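The number of the 8 genes called in PH80 against PH70 (3) became 6 with DESeq2 (7.56% of all genes called) and 6 with the length and GC correction (5.55%). In PH80_HC against PH80 (2) it became 0 with equal totals (0.573% of all genes) and 0 with only the groups compared (0.0159%). In PH80_HC against PH70 (0) it became 1 with DESeq2 (2.01%) and 1 with only the groups compared (0.231%). The F test over 4 groups (0) became 4 with DESeq2 (9.75%) and 4 with the length and GC correction (3.1%). Without PH80 replicate 2 and PH80_HC replicate 1 together, an alternative chosen after seeing the data, these counts were 1, 0, 0 and 1 (1.22%, 0.27%, 0.207% and 0.994% of all genes). Leaving out each library in turn gave 0 to 3, 0 to 2, 0 to 1 and 0 to 2. In the other 3 comparisons the count was 0 in all 26 alternatives. The cause of these changes was not tested. Labels give each group replicate numbers 1 to 3, but they do not pair the libraries: 6 of 18 same-number pairs had a correlation of deviations over 0.1, and 1 of 12 libraries correlated best with its own number. With the replicate number as a block the counts became 1 in PH80 against PH70 (2.33% of all genes) and 1 in PH80_HC against PH80 (0.517%), and 6 in PH80 against PH70 with the length and GC correction as well (4.24%).

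Differences that were not called changed sign at times. Nr0b2 in PH80 against PH70 was 0.013 with edgeR, 0.000193 with DESeq2 and 0.076 with equal totals, and -0.37 to 0.25 leaving out each library. With equal totals Cyp7b1 in PH80_HC against PH80 was -0.16 and Slc27a5 in PH80_HC against PH70 was -0.030. Leaving out each library, in PH80_HC against PH80 Cyp7a1 ran from -1.50 to 0.51, Cyp7b1 from -0.23 to 0.64 and Nr1h4 from -0.072 to 0.72, and Baat in PH80_HC against PH70 from -0.10 to 0.040. The ratio differences between groups moved by less than 1 SD in the alternatives run. With 3 libraries a group, the spread between libraries limits what can be called. Cyp7a1 had a 95% confidence interval as wide as -3.89 to -0.07 in PH80 against PH70.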
